A study of Drosophila melanogaster with 8 samples.

Results

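The 7 genes described here encode enzymes that take sugars off glycans in the lysosome. They are the 6 lysosomal α-mannosidase genes LManI, LManII, LManIII, LManIV, LManV and LManVI and the α-galactosidase gene CG7997, out of 11981 genes that had a probe set of their own on the array. The genes were chosen by name with results of the comparison of diapause with non-diapause heads already known, and a gene with several probe sets was to be represented by the one with the highest mean over the 8 arrays. Each of the 7 had 1 probe set, so that step decided nothing. The group differences of the 7 genes are therefore given below as descriptions, and no p-value is attached to them.

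The arrays held total RNA from heads of Canton S females, a wild-type laboratory strain without transgenes. Both groups were collected within 8 h of eclosion and then spent 12 days at 12.5 °C with 14 h of light and 10 h of dark a day, so that diapause and non-diapause females, 4 arrays each, differed in the state of their ovaries alone as far as the labels say. Diapause is the adult arrest in which egg development stops before yolk is taken up. Separate cultures are not mentioned for the arrays of a group, so p-values cover array-to-array spread alone, and part of that may be technical. The 1-colour Affymetrix arrays carried 18769 probe sets besides controls, with values between a floor of 2.16, where a transcript has no signal, and 15.7. All values are log2 values, errors are SD over 4 arrays unless SE is written, and each difference is the diapause mean less the non-diapause mean. Markers of photoreceptors (5 of 8 measured, list mean 13.79 to 14.15 per array), glia (5 of 6, 11.03 to 11.36) and neurons (6 of 8, 8.37 to 9.60) were present on every array, as the labelled tissue requires. Digestive tract markers (22 of 29 measured) had a mean of 2.69 on non-diapause 3 and of 8.11 to 9.44 on the other arrays. The labels name heads and no digestive tissue, yet alphaTry stood at 12.45 to 14.41 on those other arrays. Of the 22 genes, 20 were higher in diapause and 2 lower (median 2.02), with non-diapause 3 weighing on that difference. Of all 18769 probe sets, 6381 were higher. The source of the digestive transcripts was not tested.

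Glycoproteins and glycolipids that reach the lysosome are taken apart from their ends by enzymes that each remove 1 kind of sugar. Lysosomal α-mannosidases remove mannose from N-linked glycans, and the loss of the human enzyme causes α-mannosidosis. α-Galactosidase removes terminal galactose from glycolipids and glycoproteins, and its human counterpart is the enzyme missing in Fabry disease. In the fly the mannosidase genes lie in tandem. In the order of genes of Drosophila Release 6, LManI and LManII are next to each other on chromosome arm 2L, LManIII, LManIV, LManV and LManVI follow each other elsewhere on the same arm, and CG7997 lies on 2R.

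CG7997 was the one gene of the 7 whose groups did not overlap. Its probe set is of a type whose probes can match more than 1 transcript, and the annotation names CG7997 alone for it. It stood at 10.30, 10.10, 10.19 and 10.29 on diapause arrays 1 to 4 and at 10.98, 10.78, 10.72 and 10.83 on non-diapause arrays 1 to 4. Every diapause array was thus below every non-diapause array. The means were 10.22 ± 0.09 and 10.83 ± 0.11, a log2 difference of -0.61 ± 0.07 (SE) with a 95% interval of -0.78 to -0.44, or 0.657 of the non-diapause level. With each array left out in turn the difference stayed between -0.64 and -0.56. Its spread within groups was small, with a smaller one in 20.4% of the 7280 genes with a mean of at least 4. Groups that did not overlap, with diapause lower, were found for 1.20% of all probe sets and 2.50% of the 8760 whose mean was 4 or more. CG7997 was chosen with this contrast known, and nothing is read from its own place there.

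**Figure D1:**
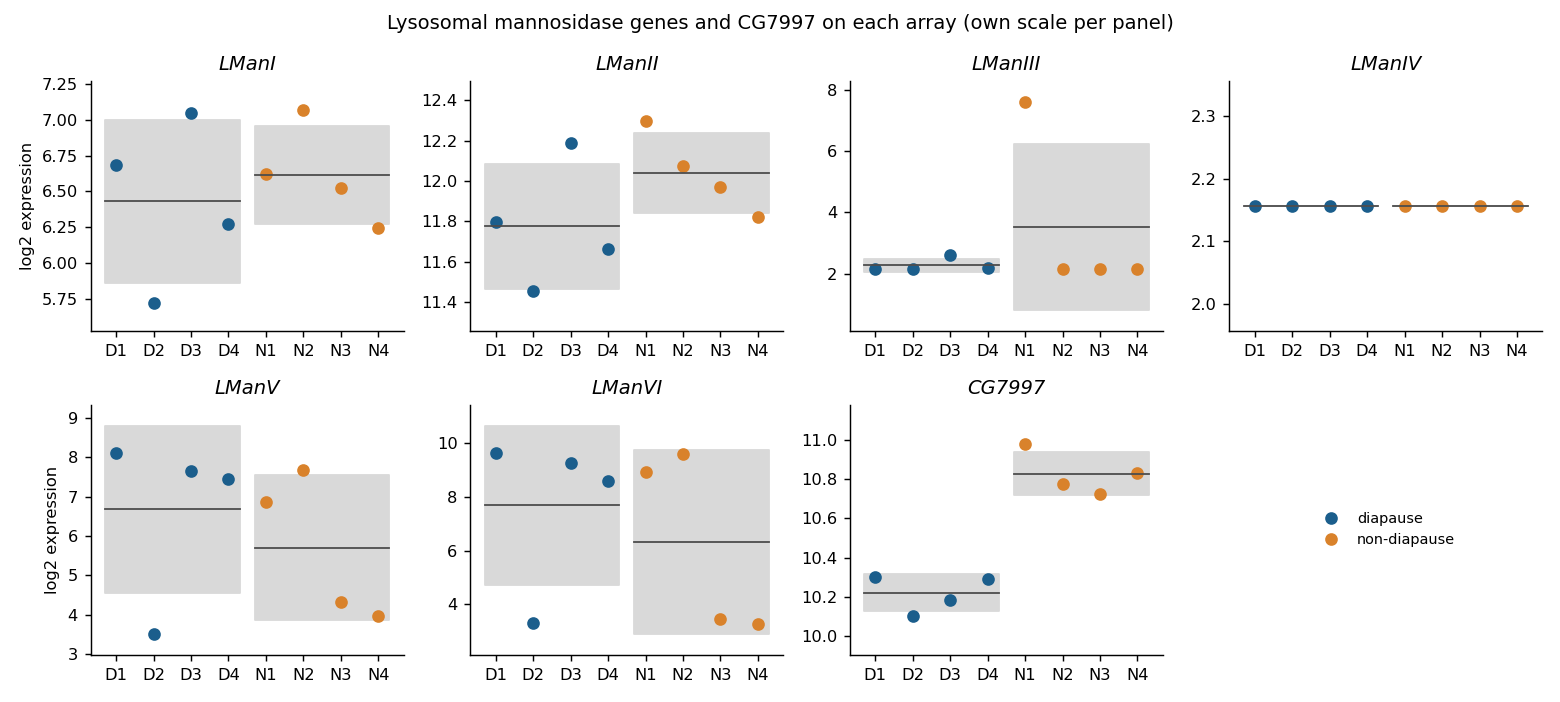
Log2 expression of each gene on the 4 diapause (D1 to D4) and 4 non-diapause (N1 to N4) arrays, with the group mean as a line and 1 SD as a grey band (each panel has its own scale). The groups of CG7997 are separate (10.10 to 10.30 and 10.72 to 10.98), LManV and LManVI are low on D2, N3 and N4, LManIII is high on N1 alone, and LManIV is at the floor of 2.16 throughout.

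Transcripts of a fat body marker list moved with CG7997. The list (9 of 10 measured, Fbp1 at the floor on 7 arrays) holds genes of yolk proteins, storage proteins and lipid carriers. Of the 9, 8 were lower in diapause, 7 of them at p under 0.05 (2.09% of all probe sets, and 4.33% of those with a mean of 4 or more, were lower there), 4 at p under 0.01 (0.607% of all) and 0 at limma adjusted p under 0.05. The list was chosen with earlier results of these data known, and the study had already named Yp2 and Yp3 as diapause genes. These counts are therefore a description and not independent evidence. The smallest p belonged to the storage protein gene Lsp2, at 14.71 to 14.86 in diapause and 14.99 to 15.17 in non-diapause heads (-0.33, adjusted p = 0.51). The widest difference was that of fit (-0.84), a female-specific gene of the fat body, with 12.33 to 13.43 in diapause and 13.41 to 14.36 in non-diapause heads. The mean of the list was 12.33 to 12.53 on the diapause and 12.63 to 12.86 on the non-diapause arrays, so these groups did not overlap either. Pearson's r between CG7997 and the list mean over the 8 arrays was 0.94, and 0.73 for the deviations from group means. Those deviations were not particular to the fat body. Their r was -0.85 with Malpighian tubule markers (3 of 4 measured, 1 at the floor), -0.78 with photoreceptor and -0.61 with glia markers. Over the 8 arrays these r were -0.24, -0.08 and -0.49. Muscle markers (5 of 7 measured, none at the floor) ran the other way, with means of 10.97 to 11.22 on the diapause and 10.60 to 10.89 on the non-diapause arrays. The part of the fat body or of muscle in the difference of CG7997 was not tested, and in RNA of whole heads fewer cells of a type and less RNA per cell cannot be told apart.

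The genes with the pattern most like CG7997 over the 8 arrays, among 5969 genes with a mean of at least 4 and an SD of at least 0.1, were CG1544 (r = 0.992), the neprilysin-like peptidase gene Nepl18 (r = 0.963) and CG3829 (r = 0.960). CG1544 stood at 7.04 to 7.22 in diapause and 7.73 to 8.09 in non-diapause heads. Nepl18 ranged from 9.66 to 10.17 and from 10.32 to 10.66, and CG3829 from 10.10 to 10.47 and from 10.71 to 11.13. In each of them the groups were separate and diapause was the lower, a feature they share with CG7997 by the way they were found. With the group means taken out, r was 0.89, 0.90 and 0.85. All of these points come from the same 8 arrays. The study had already named CG3829 among the genes common to its diapause and photoperiod results.

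**Figure D2:**
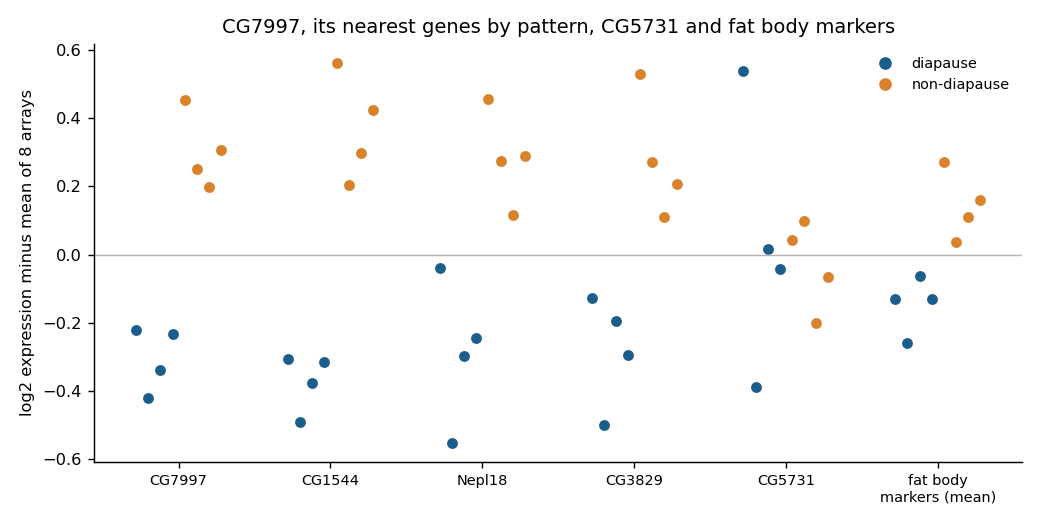
Log2 expression minus the gene's mean over 8 arrays for CG7997, the genes closest to it in pattern, the other α-galactosidase gene CG5731 and the mean of 9 fat body markers (points from left to right are diapause 1 to 4, blue, and non-diapause 1 to 4, orange). The groups of CG7997, CG1544, Nepl18, CG3829 and the fat body mean are separate, while those of CG5731 overlap.

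The fly has a further α-galactosidase gene, CG5731. It stood at 4.79, 3.86, 4.27 and 4.21 on the diapause arrays and at 4.29, 4.35, 4.05 and 4.18 on the non-diapause arrays, low on the scale of the array but above the floor on each. The groups overlapped, and the difference was 0.06 ± 0.20 (SE) with a 95% interval of -0.41 to 0.54 (limma adjusted p = 1). Whether CG7997 and CG5731 differ in their response was not tested. The genes on either side of CG7997 on the chromosome, the HMG-CoA synthase gene Hmgs and the nuclear pore gene Nup62, both differed by -0.05, with group means of 10.37 and 10.43 for Hmgs and 7.50 and 7.55 for Nup62.

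LManV and LManVI varied far more between arrays of a group than between groups. LManVI stood at 9.61, 3.30, 9.24 and 8.57 on the diapause arrays and at 8.93, 9.56, 3.47 and 3.27 on the non-diapause arrays. Diapause 2, non-diapause 3 and non-diapause 4 were thus near 3, and the other 5 arrays were at 8.57 or above, with nothing between. LManV, the gene before it in the tandem, was low on the same arrays, with 8.11, 3.50, 7.65 and 7.45 in diapause and 6.86, 7.67, 4.32 and 3.97 in non-diapause heads. Over the 8 arrays the genes had r = 0.986. The spread within groups was 3.19 for LManVI and 1.99 for LManV (pooled SD), with a smaller spread in 99.6% and 98.3% of the 7280 genes. The group differences were 1.37 ± 2.19 (SE, 95% interval -3.93 to 6.67) for LManVI and 0.97 ± 1.37 (-2.34 to 4.28) for LManV. Of the low arrays, 1 was a diapause array and 2 were non-diapause arrays. Without diapause 2 they were 2.83 and 2.03, and without non-diapause 4 they were 0.36 and 0.39. The sequences of LManV and LManVI were not compared here, and whether a probe of one also binds the transcript of the other was not tested.

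Few other genes split the arrays in this way. A gap of at least 2 between the 3 lowest arrays and the rest was found in 16 genes of the 7280, and in 5 of these the low arrays were diapause 2, non-diapause 3 and non-diapause 4. These were LManVI, with the widest gap (5.10), then CG7953 (3.21), LManV (2.54), CG15255 (2.45) and CG8997 (2.22). CG7953 stood at 11.10, 3.26, 11.43 and 11.55 in diapause and at 6.58, 12.77, 3.38 and 2.90 in non-diapause heads, with non-diapause 1 between the low and the high arrays. This count was made after the values of LManV and LManVI were seen. By r over the 8 arrays, the genes most like LManVI were LManV, the glycerol phosphate acyltransferase gene Gpat4 (r = 0.983) and the glutaminyl cyclase gene isoQC (r = 0.983). Gpat4 was 9.12 to 9.18 on the low arrays and 9.50 to 9.55 on the others, so a like order was found at a far smaller amplitude. After LManVI, the genes most like LManV were CG33966 (r = 0.966) and Aos1 (r = 0.962), whose product is a subunit of the enzyme that activates SUMO.

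**Figure D3:**
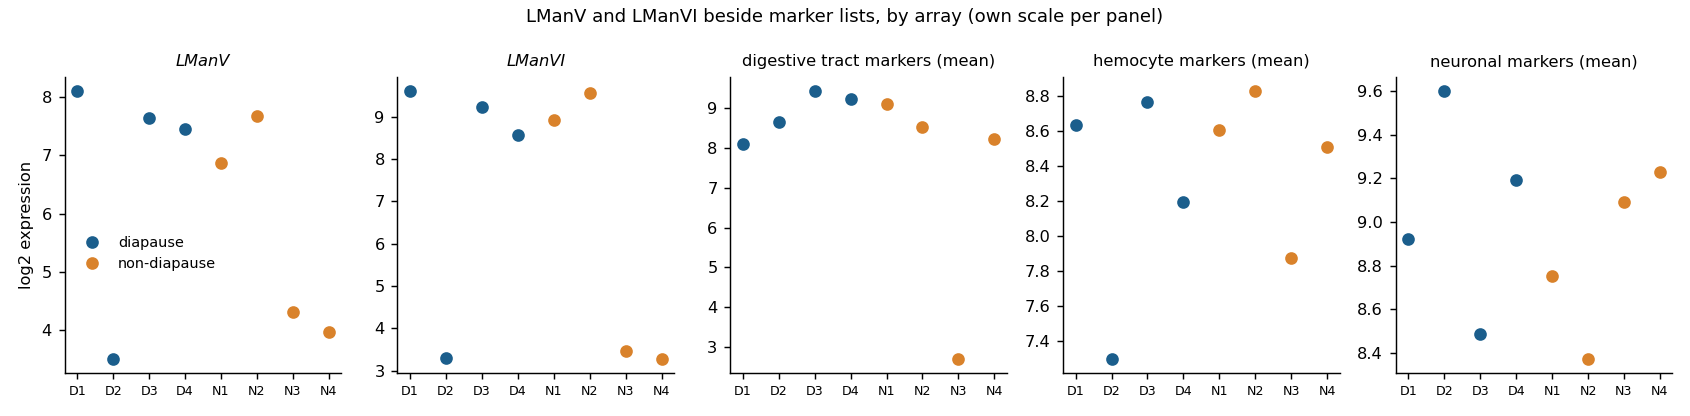
Log2 expression of LManV and LManVI on each array (D, diapause, and N, non-diapause) beside the mean of 22 digestive tract, 5 hemocyte and 6 neuronal markers, each panel on its own scale. D2, N3 and N4 are low for LManV (at most 4.32) and LManVI (at most 3.47), whereas the digestive tract mean is low on N3 alone (2.69).

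Marker lists differed between these arrays too. The mean of the digestive tract markers was 8.64 on diapause 2 and 8.22 on non-diapause 4, within the 8.11 to 9.44 of the 7 arrays other than non-diapause 3. Single digestive genes differed from the mean, as the trypsin gene zetaTry stood at 2.30 on diapause 2 and 2.21 to 2.29 on non-diapause 1, 3 and 4, and at 7.45 to 8.30 on the others. Unlike LManVI, zetaTry was low on non-diapause 1 too. The trypsin gene etaTry was lowest where LManVI was low, at 3.11 on diapause 2, 2.65 on non-diapause 3 and 2.71 on non-diapause 4. Elsewhere etaTry stood at 3.53 to 5.57. The trypsin gene alphaTry was instead high on diapause 2 (14.21) and non-diapause 4 (13.68), and low on non-diapause 3 (2.36). Of the 22 digestive genes, Jon44E, Jon66Ci and Jon66Cii were at the floor on 7 arrays each. Hemocyte markers (5 of 5 measured, none at the floor) had means of 7.30 on diapause 2, 7.87 on non-diapause 3 and 8.51 on non-diapause 4, and 8.19 to 8.83 on the others. Neuronal markers were highest on diapause 2 (9.60) and stood at 9.09 on non-diapause 3 and 9.23 on non-diapause 4, against 8.37 to 9.20 elsewhere. Photoreceptor markers (5 of 8 measured, none at the floor) separated the same arrays, with means of 14.12 on diapause 2, 14.15 on non-diapause 3 and 13.96 on non-diapause 4 and 13.78 to 13.91 on the others. They were thus higher where LManV and LManVI were low. The r of LManVI over the 8 arrays was 0.52 with the digestive tract, 0.73 with the hemocyte, -0.75 with the neuronal and -0.85 with the photoreceptor mean, and for LManV the last was -0.82. The part of these tissues in the levels of LManV and LManVI was not tested.

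The first genes of the same tandem behaved otherwise. LManIII was at 2.16 to 2.17 on 6 arrays, at 2.60 on diapause 3 and at 7.62 on non-diapause 1. It was therefore well above the floor on 1 array of the 8. Over all genes, 11 had 1 array that was higher than each of the others by at least 2, and in 4 of them this was non-diapause 1. LManIII had the widest gap of the 4 (5.01), followed by CG4835, at 5.44 there and at most 2.44 elsewhere, CG13325 (2.31) and CG31259 (2.19). Its group difference of -1.25 (95% interval -4.47 to 1.97) rested on that array and was 0.11 without it. LManIV, between LManIII and LManV, lay at the floor on all 8 arrays and has no measured difference. The genes that flank the tandem, CG12438 and CG42710, lay at the floor of 2.16 as well.

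LManII, with LManI beside it, was above the floor on every array. On diapause arrays 1 to 4 LManII read 11.80, 11.46, 12.19 and 11.66, and on non-diapause arrays 1 to 4 it read 12.29, 12.07, 11.97 and 11.82. Its groups overlapped, since diapause 3 was above 3 of the non-diapause arrays. The means were 11.78 ± 0.31 and 12.04 ± 0.20, a difference of -0.26 ± 0.18 (SE, 95% interval -0.70 to 0.17), which was -0.16 without diapause 2 and -0.40 without diapause 3. LManI read 6.68, 5.72, 7.05 and 6.27 on the diapause arrays and 6.62, 7.07, 6.52 and 6.24 on the non-diapause arrays, again with an overlap. The means were 6.43 ± 0.57 and 6.61 ± 0.35, and the difference of -0.18 ± 0.32 (SE, 95% interval -0.97 to 0.60) turned to 0.05 without diapause 2, the lowest array. Both genes were lowest on diapause 2, and over the 8 arrays they had r = 0.811. LManI was the more variable, with a smaller spread within groups in 91.1% of the 7280 genes, against 70.4% for LManII.

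Neuronal markers ran opposite to LManI. With the mean of the 6 neuronal markers LManI had r = -0.97 over the 8 arrays and LManII r = -0.84, and with the 5 hemocyte markers r = 0.85 and 0.72. Diapause 2 had both the highest neuronal (9.60) and the lowest hemocyte mean (7.30). The group ranges of the neuronal mean, 8.49 to 9.60 in diapause and 8.37 to 9.23 in non-diapause heads, overlapped, and so did those of the hemocyte mean, 7.30 to 8.77 and 7.87 to 8.83. The part of these cell types in the levels of LManI and LManII was not tested. In pattern, LManI was closest to CG4000 (r = 0.965), which was lowest on diapause 2 (11.49) as well, CG7509 (r = 0.951) and CG7409 (r = 0.950). LManII was closest to CG4646 (r = 0.967), the hydroxyglutarate dehydrogenase gene D2hgdh (r = 0.964) and peg (r = 0.963). LManII lies beside RluA-1, which had group means of 8.28 ± 0.12 and 7.73 ± 0.12 (0.55), the opposite sign to LManII. On the other side, ppk10 next to LManI was at the floor.

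**Figure D4:**
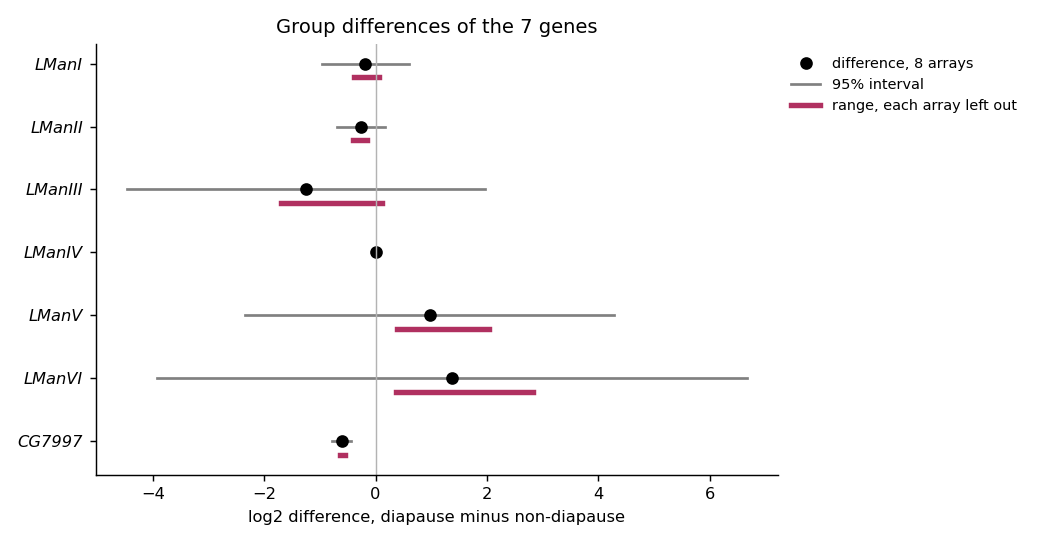
Difference of each of the 7 genes (point, diapause minus non-diapause on the log2 scale) with its 95% interval from limma (grey) and the range over fits with each array left out (red). The interval of CG7997 runs from -0.78 to -0.44, those of LManIII, LManV and LManVI span more than 6 log2 units, and LManIV, at the floor, has no width. The genes were chosen with this contrast known, so the intervals describe spread and are not read as tests.

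Across the 7 genes, 4 were lower and 2 higher in diapause by more than 0.01, and their median of -0.18 is the difference of LManI. The genes were chosen with this contrast known, so nothing is read from these counts or this median. Of all 18769 probe sets, 7054 had a difference below 0 and 6381 above it, with a median of 0. The signs of LManI and LManIII turned when 1 array was left out, as given above. In limma with Benjamini-Hochberg adjustment over the 18769 probe sets, 0 (0%) passed an adjusted p of 0.05. At unadjusted p under 0.01, the threshold of the study, 114 probe sets were lower (0.607%) and 30 were higher. Those counts were 297 and 21 after each array was centred on its median.

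Other enzymes of lysosomal glycan breakdown were described from lists that did not include the 7 genes. Of 22 other lysosomal glycosidases, sulfatases and their partners, 17 were measured, of which CG10474 was at the floor, and their median difference was -0.04 (11 lower, 5 higher), or -0.13 after a second quantile normalization. Their mean was lowest on the arrays low for LManVI, at 6.22 on diapause 2, 6.27 on non-diapause 3 and 6.28 on non-diapause 4. Elsewhere it was 6.32 to 6.47. Its r over the 8 arrays was 0.85 with LManVI and 0.82 with LManV, and no cause of this was tested. The β-mannosidase gene beta-Man, whose product takes off the innermost mannose, had means of 9.86 ± 0.11 in diapause and 9.90 ± 0.12 without it (-0.04, 95% interval -0.23 to 0.16). By p, the first members were the β-galactosidase gene Ect3, at 9.45 ± 0.10 and 9.65 ± 0.09 (-0.20), Hgsnat, which acts in heparan sulfate breakdown, at 9.08 ± 0.09 and 9.26 ± 0.09 (-0.18), and Naglu, of the same pathway, at 7.08 ± 0.24 and 7.45 ± 0.28 (-0.37). None passed (limma adjusted p = 1 for each). The other β-galactosidase gene, Gal, varied more, with 8.64 to 10.24 in diapause and 7.86 to 9.66 in non-diapause heads, and it was lowest on non-diapause 3 and 4.

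The list of other lysosomal hydrolases and genes related to them was centred near 0 as well. Of 13 genes 12 were measured, with a median difference of -0.07 (8 lower, 4 higher), and the first members by p were Swim (0.27), the gut lipase gene mag (3.32) and the sphingomyelinase gene CG3376 (-0.14). For mag the values were 9.38, 8.19, 9.37 and 8.10 in diapause and 4.52, 9.72, 3.68 and 3.86 in non-diapause heads. It was thus low on 3 non-diapause arrays, of which non-diapause 3 and 4 were low for LManVI too, whereas diapause 2 and non-diapause 1 went different ways for the 2 genes. Membrane and transport genes of the lysosome had a median of 0.03 (11 of 13 measured, 5 lower, 6 higher), which turned to -0.05 without diapause 2 and -0.03 after centring on array medians. In this list dor, a subunit of the complex that fuses vesicles with the lysosome, was 6.42 ± 0.17 and 6.73 ± 0.09 (-0.31). The other first members by p were spin (0.08) and Lerp (0.17).

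The α-mannosidases of the secretory pathway trim N-glycans as they are made rather than break them down. Of 14 genes of the ER and Golgi trimming list 11 were measured, with a median of 0.01 (5 lower, 6 higher), which was -0.09 without diapause 2 and -0.05 after centring. The mean of this list was highest where LManVI was low, at 9.54 on diapause 2, 9.56 on non-diapause 3 and 9.40 on non-diapause 4. On the other arrays it was 9.32 to 9.37, and its r over all arrays was -0.84 with LManVI and -0.83 with LManV. The 4 α-mannosidase genes differed by 0.02 (alpha-Man-Ia), 0.02 (alpha-Man-Ib), -0.05 (alpha-Man-IIa) and 0.04 (alpha-Man-IIb), and the widest of their 95% intervals was that of alpha-Man-IIb, from -0.46 to 0.54. The first members by p were the glucosidase gene GCS1 (-0.16), Mgat1 (-0.11) and fdl (0.06). Over the 4 lists together, 0 of 51 genes passed in limma at adjusted p under 0.05 and 0 had p under 0.01. At p under 0.05, 3 were lower (Ect3, Hgsnat and dor) and 0 higher, against 2.09% lower and 0.906% higher of all probe sets, and 4.33% lower of those with a mean of 4 or more. The median over the 51 genes was -0.03, with 29 lower and 21 higher.

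**Figure D5:**
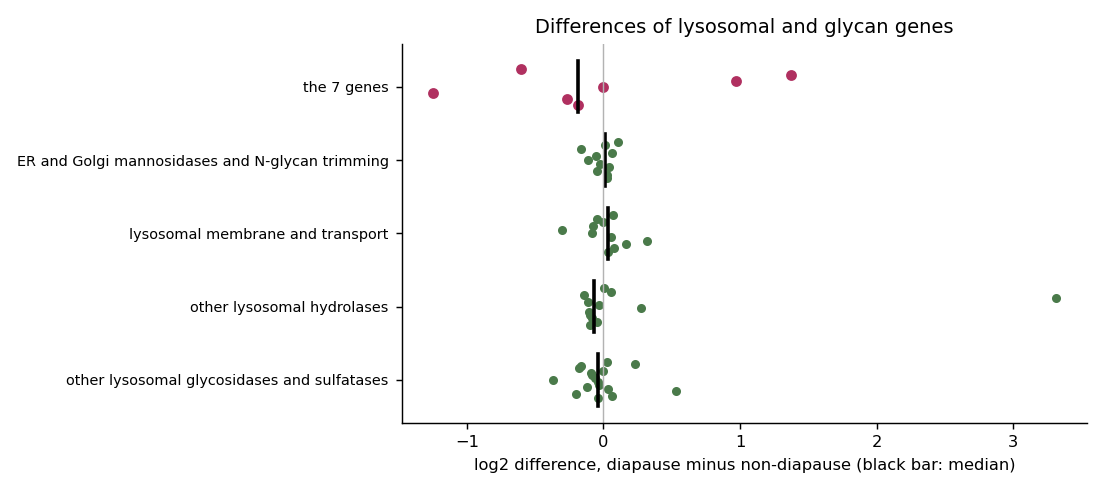
Differences on the log2 scale of the 7 genes (red) and of the 51 measured genes of the lysosomal and glycan lists (green), 1 point per gene, with the median of each list as a black bar. The medians of the 4 lists lie between -0.07 and 0.03, that of the 7 genes at -0.18, and the green point at 3.32 is mag.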

How the data were processed

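Per the labels, total RNA of female heads (6 µg) was made into biotinylated cRNA and hybridised in 1 colour, and the methods of the study name the Drosophila Genome 2.0 array. The authors deposited log2 values, 1 per probe set and array, made with GCRMA (per the submitters' processing notes, version not given in the sources used here), which corrects background by probe sequence, normalizes by quantiles and summarises probes. Transcripts without signal end at the floor. Groups and replicate numbers come from the titles.

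Genes were named through the platform annotation (13646 probe sets with 1 symbol). The symbols of all 7 genes matched the Release 6 reference by identifier. List genes were found through it by symbol or synonym, and those with no probe set of their own were not analysed here. Differences were fitted with limma 3.58.1 in R 4.3.3 (lmFit, eBayes) on all 8 arrays with Benjamini-Hochberg adjustment over 18769 probe sets without 183 controls, and the step was tested on simulated data. Members, lists and tests were chosen with earlier results of these data known. Named were all 7 genes, per pathway list the genes with p under 0.01 or else the 3 of smallest p, per gene with a mean of at least 4 the 3 of highest r, and other α-mannosidases and α-galactosidases. Genes with 3 low or 1 high array, Gal, single marker genes (Lsp2, fit, zetaTry, etaTry, alphaTry) and chromosomal neighbours were added after values were seen. Alternatives were a filter (mean of at least 4), limma-trend, array weights, a second quantile normalization, centring on medians, a replicate block, the mean of a gene's probe sets and each array left out. Array number limits precision. No sequences were used here.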

Additional observations from a re-analysis of the deposited data

Results flagged for a closer look

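In each group of 4 arrays, the highest and the lowest array were compared with the array next to them, and an array was marked when that gap passed Dixon's 95% limit as a share of the range of the group. Chance marks about 1 group in 20, and 8 groups were marked among both groups of 27 genes or marker lists. Of the 7 genes, LManIII was marked on non-diapause 1 (7.62, nearest array 2.17) and on diapause 3 (2.60, nearest 2.17), the latter close to the floor. LManV and LManVI were marked on diapause 2, with 3.50 (nearest 7.45) and 3.30 (nearest 8.57). In the non-diapause group non-diapause 3 and 4 were both low for these genes, so no single array stood apart there. Among list genes, mag was marked as high on non-diapause 2 (9.72, nearest 4.52) and GCS1 as low on diapause 3 (7.86, nearest 8.23). The mean of digestive tract markers was marked on non-diapause 3 (2.69, nearest 8.22) and that of muscle markers on diapause 3 (11.2, nearest 11.01). No cause was tested.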

How the results depend on the processing

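CG7997 stayed lower by 0.56 to 0.67 on the log2 scale under all alternatives. The medians of the lists of lysosomal membrane genes and of ER and Golgi genes lay within 0.1 of 0 in every fit, on either side of it. The 7 genes had a median difference of -0.39 to 0 when each array was left out. Probe sets at limma adjusted p under 0.05 numbered 4 with array weights, 2 after a second quantile normalization, 1 after centring on medians and 0 to 2 with 1 array left out. Lower probe sets at p under 0.01 numbered 207 after the second quantile normalization, 297 after centring and 72 to 120 with 1 array left out. Higher ones numbered 47 with array weights and 20 to 47 with 1 array left out. No gene of the lists passed an adjusted p of 0.05 in any fit. At p under 0.01, Hgsnat and dor were below it after the second quantile normalization, Ect3 and Hgsnat after centring, dor without diapause 1 and mag without non-diapause 2. The titles number the replicates and do not say whether same-numbered arrays were paired. The deviations of same-numbered arrays had r from -0.66 to -0.02, which cannot settle this, since other differences between arrays enter r too. The replicate block gave 87 lower and 25 higher probe sets at p under 0.01. A filter on dim probe sets leaves LManIII and LManIV out. The causes were not tested.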
